A study of Arabidopsis thaliana with 9 samples.

Results

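The genes described are 10 Arabidopsis SPL genes that the microRNA miR156 is known to target: SPL2 (AT5G43270), SPL3 (AT2G33810), SPL4 (AT1G53160), SPL6 (AT1G69170), SPL9 (AT2G42200), SPL10 (AT1G27370), SPL11 (AT1G27360), SPL13A (AT5G50570), SPL13B (AT5G50670) and SPL15 (AT3G57920). They were chosen by their gene identifiers from the 37184 genes of each table, by a rule proposed with results of these libraries known. Which measured values stood behind the rule is not recorded, so every small RNA difference between genotypes at these 10 genes is a description and carries no p-value. Calls from the fit over all genes are counted beside the share of all genes called, and nothing further is read from them. The 7 other SPL genes that were measured served for comparison, above all SPL1, SPL12 and SPL14, which miR156 does not target.

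Small RNA was sequenced from 3 libraries of the dxo1-2 mutant and 3 libraries of Col-0, the wild type. Total RNA depleted of ribosomal RNA was sequenced from another 3 dxo1-2 libraries with a kit that keeps the strand. All plants were seedlings aged 21 days, raised on soil with 16 h of light and 8 h of darkness a day after 2 days of cold at 4 °C. DXO1 encodes an enzyme of the DXO family, which acts on RNA 5′ ends, and the labels do not say what kind of lesion the dxo1-2 allele is. Col-0 RNA-seq was not analysed here.

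SPL genes encode transcription factors with an SBP domain, which binds DNA at motifs with a GTAC core. miR156 is abundant in young plants and falls with age, and the SPL genes it had held down then promote the change from juvenile to adult leaves and the onset of flowering. In this family the complementary site lies in the coding region of most targets, and in the 3′ untranslated region of SPL3, SPL4 and SPL5. A small RNA count at an SPL gene is a short read placed on that gene. It can be a fragment of the transcript, an siRNA, or a read from elsewhere that fits the gene's sequence, and the tables do not tell these apart. The loci that encode microRNAs were not analysed here.

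Gene counts per library were 5022945 to 5698185 in dxo1-2 small RNA, 3976221 to 4393015 in Col-0 small RNA and 60138933 to 71210737 in dxo1-2 RNA-seq. Levels are in CPM, counts per 1000000 gene counts after TMM scaling, and Col-0 replicate 1 stood apart at these loci, as described below. DXO1 (AT4G17620) had 108, 76 and 113 RNA-seq counts in the dxo1-2 libraries, which check nothing about the genotype without Col-0 RNA-seq. Leaf markers summed to 10384 to 12960 RNA-seq CPM, and all 4 were present. Of 5 flower markers AP1 was at 0, and the list summed to 0.607 to 1.11 CPM. Of 4 root markers RHD6 and PLT1 were at 0, but the list summed to 168 to 191 CPM, nearly all from PYK10. WUS and CLV3 of 3 shoot meristem markers were at 0, but the list summed to 3.79 to 5.26 CPM, all from STM. SAG12 of 2 senescence markers was at 0, but the list summed to 16.1 to 24.0 CPM, all from SEN1. In small RNA the leaf markers summed to 1635 to 2062 CPM in dxo1-2 and 404 to 899 CPM in Col-0, where replicate 3 was the highest. Most of this came from CAB1 and CAB2, near-identical genes whose reads may be shared. Root markers summed to 3.37 to 3.83 CPM in dxo1-2 and 4.00 to 13.1 CPM in Col-0, and senescence markers to 5.71 to 11.6 CPM in dxo1-2 and 13.1 to 13.4 CPM in Col-0. Flower and shoot meristem markers summed to at most 1.67 CPM in every small RNA library. The part of these markers in the SPL results was not tested.

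The targeted SPL genes fell into 2 sets by their small RNA. SPL2, SPL4, SPL6, SPL9, SPL10, SPL11, SPL13A and SPL13B carried small RNA counts in all 6 libraries, while SPL3 and SPL15 were at 0 counts in every one. A count of 0 allows up to 3 counts per library, which is 0.459 to 0.548 CPM in dxo1-2 and 0.789 to 0.833 CPM in Col-0, for counting error only. Both SPL3 and SPL15 overlap another annotated gene, the long non-coding RNA gene AT2G33815 and the protein-coding gene AT3G57910. These neighbours had 0 counts and 0 to 2 counts in every small RNA library, and reads over 2 genes can be set aside as ambiguous, so the part this plays was not tested. SPL5 (AT3G15270), a known target outside the list of 10, had 5 small RNA counts over the dxo1-2 libraries and 1 over the Col-0 libraries.

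The 8 loci with counts moved together over the Col-0 libraries, and in Col-0 replicate 1 they were nearly level. Over the dxo1-2 libraries they did not all move together: SPL4 had 12, 17 and 14 counts and SPL2 50, 42 and 47. The lowest and the highest of the 8 held 12 and 53 counts in dxo1-2 replicate 1, 14 and 48 in dxo1-2 replicate 2, and 14 and 49 in dxo1-2 replicate 3. They held 54 and 78 counts in Col-0 replicate 1, 7 and 36 in Col-0 replicate 2, and 10 and 49 in Col-0 replicate 3. In Col-0 replicate 1 the 6 genes other than the SPL13 pair lay within 54 to 62 counts. Every small RNA table lists 0 reads as set aside for several matches, and the labels do not say how such reads were treated before counting. Whether a read that fits several SPL genes was counted at more than 1 of them was not tested, and the counts of these 8 loci may not be 8 separate measurements.

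**Figure D1:**
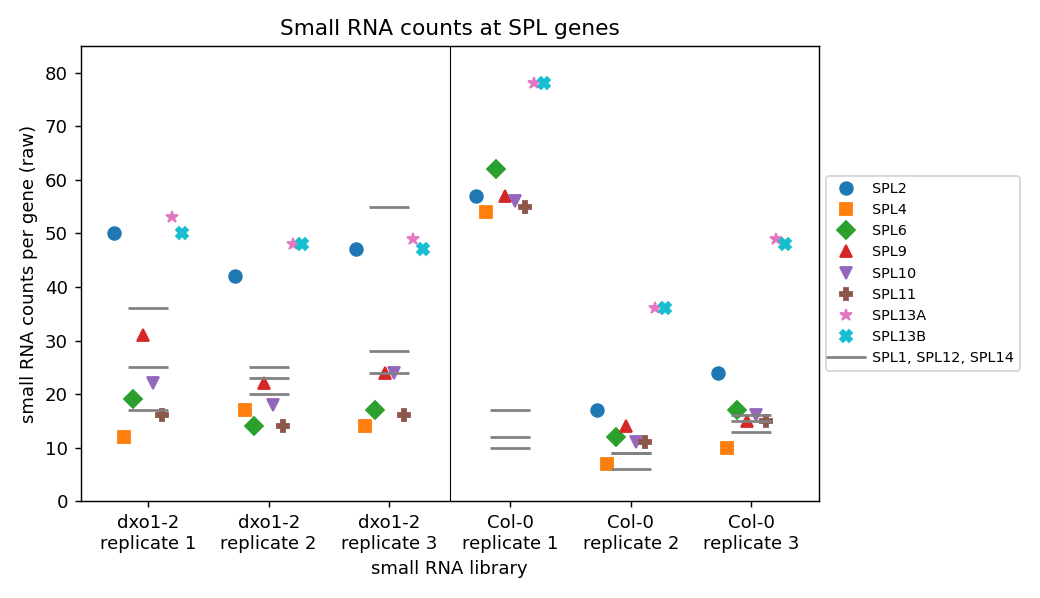
Raw small RNA counts (y axis) at the 8 targeted SPL genes with counts, by library (x axis), with 1 symbol per gene and grey bars for SPL1, SPL12 and SPL14. All 8 genes lie between 54 and 78 counts in Col-0 replicate 1, where the grey bars lie between 10 and 17.

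Col-0 replicate 1 set much of the Col-0 level of 6 of the 8 targeted genes with counts, and less of that of the SPL13 pair. In that library 6 of the 8 were at least 2-fold above both other Col-0 libraries in CPM, a fold chosen after the values were seen, against 2.03% of the 11534 genes tested. SPL4 was 5.63-fold above the higher of the other Col-0 libraries, SPL9 3.96-fold, SPL11 3.82-fold, SPL6 3.80-fold, SPL10 3.65-fold and SPL2 2.48-fold. SPL13A and SPL13B were 1.66-fold and 1.69-fold above it, and SPL13A averaged 14.7 CPM in Col-0 with that library and 11.3 CPM without it. The genes that miR156 does not target were not set apart in that library: the same ratio was 0.962 for SPL1, 0.652 for SPL12 and 1.18 for SPL14. The share of small RNA reads on genes was 22.3% in Col-0 replicate 1, between the other Col-0 libraries at 22.2% and 23.7%. By the same 2-fold measure 7.06% of tested genes stood apart in Col-0 replicate 3 and 1.6% in Col-0 replicate 2, with 0 of the members in each. The cause of the high counts in Col-0 replicate 1 was not tested.

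SPL13A and SPL13B, near-identical copies that act in the vegetative phase change, had the most equal counts of the set. SPL13A had 53, 48 and 49 small RNA counts in the dxo1-2 libraries, against 78, 36 and 49 in the Col-0 libraries. SPL13B had 50, 48 and 47 in dxo1-2, against 78, 36 and 48 in Col-0. The copies differed by 0 to 3 counts in any library and may not be separate measurements. SPL13A averaged 8.45 ± 0.329 CPM in dxo1-2 and 14.7 ± 6.27 CPM in Col-0 (SD, n = 3 each), with a log2 fold change of -0.80 ± 0.27 (SE). All dxo1-2 libraries lay below all Col-0 libraries in CPM, by a narrow margin between 8.76 CPM in dxo1-2 replicate 2 and 9.46 CPM in Col-0 replicate 2. SPL13A overlaps AT5G50565, which had 13 to 19 counts in dxo1-2 and 1 to 3 in Col-0, and its part in the SPL13A counts was not tested.

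SPL9 and SPL15 are the family members best known for the juvenile-to-adult change, and SPL9 also slows leaf initiation. SPL9 had 31, 22 and 24 small RNA counts in dxo1-2, against 57, 14 and 15 in Col-0. The genotypes overlapped, since the dxo1-2 libraries lay between the high Col-0 replicate 1 and both other Col-0 libraries. Its level was 4.30 ± 0.386 CPM in dxo1-2 and 7.84 ± 6.93 CPM in Col-0, and its log2 fold change was -0.85 ± 0.48. In the RefSeq table SPL9 and SPL4 each overlap a microRNA gene that was not analysed here.

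SPL10, SPL11 and SPL2 are close relatives that shape lateral organs. SPL10 had 22, 18 and 24 counts in dxo1-2, against 56, 11 and 16 in Col-0, and the genotypes overlapped. SPL11, its neighbour on the chromosome, had 16, 14 and 16 counts in dxo1-2, against 55, 11 and 15 in Col-0. In CPM the SPL11 groups did not overlap, but the dxo1-2 level of 2.59 ± 0.164 CPM ended just below the lowest Col-0 library at 2.89 CPM. Their log2 fold changes were -1.05 ± 0.51 for SPL10 and -1.49 ± 0.54 for SPL11.

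SPL2 had 50, 42 and 47 small RNA counts in dxo1-2, against 57, 17 and 24 in Col-0. As at SPL9, the dxo1-2 libraries lay above Col-0 replicates 2 and 3 and below Col-0 replicate 1 in CPM. SPL2 averaged 7.82 ± 0.276 CPM in dxo1-2 and 8.90 ± 6.08 CPM in Col-0. The log2 fold change of SPL2 was -0.18 ± 0.37. It turned to 0.15 when gene totals replaced TMM, to 0.40 when unassigned reads were added to the library size, and to 0.03 in limma-voom.

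SPL4, a small SBP protein that promotes flowering with SPL3 and SPL5, had 12, 17 and 14 counts in dxo1-2, against 54, 7 and 10 in Col-0. Outside Col-0 replicate 1 no library passed 17 counts, and the genotypes overlapped. The log2 fold change of SPL4 was -1.39 ± 0.64. SPL6, which contributes to immunity through an NLR receptor, had 19, 14 and 17 counts in dxo1-2, against 62, 12 and 17 in Col-0. In CPM SPL6 was lower in all dxo1-2 libraries (2.80 ± 0.214 CPM) than in all Col-0 libraries (8.30 ± 7.75 CPM), with a log2 fold change of -1.54 ± 0.54. SPL6 overlaps CRC (AT1G69180), which had 0 or 1 count in every small RNA library.

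In the edgeR fit over all genes, with Benjamini-Hochberg adjustment at 0.05, SPL6, SPL11, SPL13A and SPL13B were called lower in dxo1-2 and 0 of the 8 were called higher. Of all 11534 tested genes 23.0% were called lower and 26.8% higher. The same 4 members were those whose genotypes did not overlap, all lower, and 27.1% of tested genes did not overlap with dxo1-2 lower and 31.1% with dxo1-2 higher. The 8 members that passed the count filter had a median log2 fold change of -0.95, beside -0.019 over all tested genes. SPL3 and SPL15 did not pass the filter. Scaling moved all genes as well as the members. Scaled to gene totals, the members' median was -0.62 and that of all genes 0.31, with 4649 genes called higher and 827 lower. With unassigned reads in the library size these medians were -0.38 and 0.57, with 6987 and 503 calls. When TMM was computed on snRNA genes they were -1.63 and -0.66, with 1878 and 6244 calls. The TMM fit itself gave 3093 higher and 2651 lower.

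The lower calls did not hold when certain libraries were left out. Without Col-0 replicate 1, edgeR called 0 of the 8 members in either direction, where 18.0% of 13059 tested genes were called lower and 22.4% higher. The members' median log2 fold change was then -0.23, and 3 of the 8 values were above 0: SPL2 at 0.50 ± 0.29, SPL9 at 0.14 ± 0.34 and SPL4 at 0.08 ± 0.47. SPL10 was at -0.02 ± 0.38, and SPL6, SPL11, SPL13A and SPL13B lay between -0.48 and -0.44. Without dxo1-2 replicate 1, 2 or 3 there were also 0 calls among the members, with medians of -0.96, -0.93 and -0.99. Of all tested genes 2333 of 11920, 2094 of 11810 and 1975 of 11751 were then called lower, and 2965, 2724 and 2576 higher. Without Col-0 replicate 2 or Col-0 replicate 3, 7 members were called lower, all but SPL2. Of all tested genes 2434 of 13116 and 3109 of 12970 were called lower in these 2 fits.

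**Figure D2:**
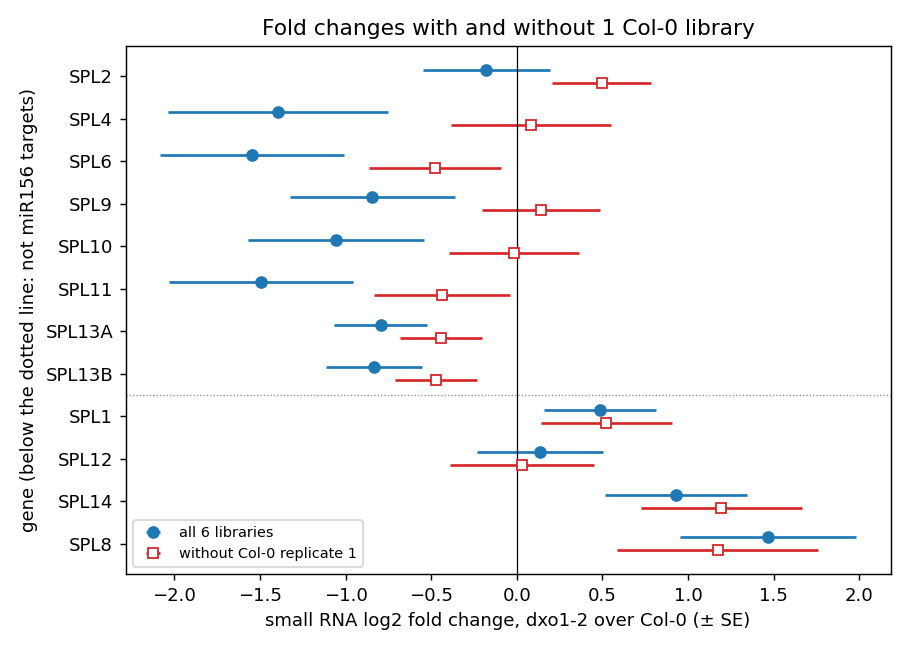
Log2 fold change of small RNA, dxo1-2 over Col-0 (x axis, ± SE), by gene (y axis), with all 6 libraries (filled circles) and without Col-0 replicate 1 (open squares). The 8 targeted genes lie between -1.54 and -0.18 with all libraries and between -0.48 and 0.50 without that library.

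The lowest of the 8 counts in a library was also taken from each of the others, a step chosen after the counts were seen. The count taken off is itself that of a member and shapes what remains. The remainders are counts per gene and not per length. This step was not applied to all genes, so no share of all genes stands beside the overlaps below. Before it, 27.1% of all tested genes did not overlap with dxo1-2 lower and 31.1% with dxo1-2 higher, and these shares do not apply to the remainders. SPL2 held 38, 28 and 33 counts above the lowest in dxo1-2, against 3, 10 and 14 in Col-0, so the groups did not overlap. The 3 in Col-0 replicate 1 was left after 54 of 57 counts were taken off. Before the step that library lay above dxo1-2 in CPM, and the groups overlapped. In CPM the remainders of SPL2 were 5.55 ± 0.379 in dxo1-2 and 2.40 ± 1.46 in Col-0. SPL13A held 41, 34 and 35 counts above the lowest in dxo1-2, against 24, 29 and 39 in Col-0. In CPM this was 6.18 ± 0.110 in dxo1-2 and 8.23 ± 1.93 in Col-0, so the groups overlapped in counts and did not overlap in CPM. SPL13B, which may not be a separate measurement, did the same, at 5.91 ± 0.262 CPM in dxo1-2 and 8.14 ± 1.79 CPM in Col-0. SPL6 held 7, 0 and 3 counts above the lowest in dxo1-2, against 8, 5 and 7 in Col-0, so the groups overlapped in counts. In dxo1-2 replicate 2 the 0 is fixed by the step, since SPL6 itself held the lowest count there. In CPM the remainders of SPL6 were 0.530 ± 0.536 in dxo1-2 and 1.80 ± 0.457 in Col-0. They did not overlap in CPM, with dxo1-2 lower, but they differed by a few counts and nothing is read from this. SPL4, SPL10 and SPL11 held at most 10 counts above the lowest in any library, and SPL9 at most 19.

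The 4 tested SPL genes outside the list had log2 fold changes above 0. Of the 7, SPL1, SPL12, SPL14 and SPL8 passed the filter, 1 was called higher and 0 lower, and their median log2 fold change was 0.71. The filter shaped this set, since SPL8 passed only through its dxo1-2 libraries. With no count filter all 7 were tested, with 6 above 0 and 1 below. SPL14 (AT1G20980), named for a role in the response to a fungal toxin, had 36, 25 and 55 small RNA counts in dxo1-2, against 17, 6 and 15 in Col-0. At 0.93 ± 0.41 on the log2 scale, the difference missed the threshold (edgeR, adjusted p = 0.0795). SPL14 was called higher when gene totals replaced TMM (0.0102), with unassigned reads in the library size (0.00532) and with no count filter (0.0331). SPL1 (AT2G47070) and SPL12 (AT3G60030), known from heat tolerance of flowers, stood at 0.49 ± 0.33 and 0.14 ± 0.37 on the log2 scale and were not called (edgeR, adjusted p of 0.238 and 0.777). SPL1 was called higher with unassigned reads in the library size (0.0133). When TMM was computed on snRNA genes, SPL1 and SPL12 turned to -0.16 and -0.52, and the median of the 4 was 0.04.

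SPL8 (AT1G02065), a gene of pollen sac development, had more small RNA in dxo1-2. It had 13, 16 and 20 small RNA counts in dxo1-2, against 2, 7 and 2 in Col-0, and the groups did not overlap. SPL8 passed the count filter only through its dxo1-2 libraries, and so could be tested only because it was high there. With that limit, its log2 fold change was 1.47 ± 0.51 (edgeR, adjusted p = 0.0310). The call was lost without Col-0 replicate 1 or 3 or dxo1-2 replicate 2 or 3 (adjusted p from 0.0794 to 0.129), in DESeq2 (0.0842), and when snRNA genes set the TMM factors (0.177). SPL8 overlaps AT1G02067, which had 0 counts in every small RNA library. AT1G76580, placed with the family here although the RefSeq table gives it no SPL name, had 36 summed counts in dxo1-2 and 6 in Col-0, a depth-scaled ratio of 3.76 (exact 95% interval 1.57 to 10.9, counting error only). SPL7 (AT5G18830), the regulator of copper supply, had 13 and 9, a ratio of 0.906 (0.358 to 2.40).

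RNA-seq gave the transcripts of the same genes in dxo1-2 alone, so levels are described and nothing is tested. SPL3 had 932, 740 and 679 counts, or 12.0 ± 1.46 CPM (SD, n = 3), so its transcript was present although its small RNA was at 0. SPL15 had 15, 17 and 15 counts, or 0.242 ± 0.0392 CPM. Transcript lengths were not used here, so the levels of different genes are not ranked.

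Among the targets with small RNA, SPL2 stood at 12.8 ± 1.23 CPM, SPL4 at 5.23 ± 0.750 CPM and SPL6 at 3.71 ± 0.583 CPM. SPL10 and SPL11 stood at 6.54 ± 0.864 CPM and 4.21 ± 0.738 CPM. SPL9 had 2.72, 2.12 and 1.46 CPM, the widest spread of the targets with a mean over 1 CPM, at 1.86-fold between the highest and the lowest library. The others with such a mean spanned 1.21-fold to 1.43-fold. The 10 targets summed to 55.8, 51.6 and 50.3 CPM.

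SPL13A and SPL13B, nearly equal in small RNA, were far apart in RNA-seq. SPL13A had 341, 348 and 416 RNA-seq counts and SPL13B 4, 2 and 3. Unlike the small RNA tables, the RNA-seq tables hold 8107769 to 10096710 reads a library in the line for several matches, and reads that fit both copies may be there. The sum of the copies in RNA-seq is therefore not known from these counts, and the low count of SPL13B cannot be told apart from reads set aside.

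**Figure D3:**
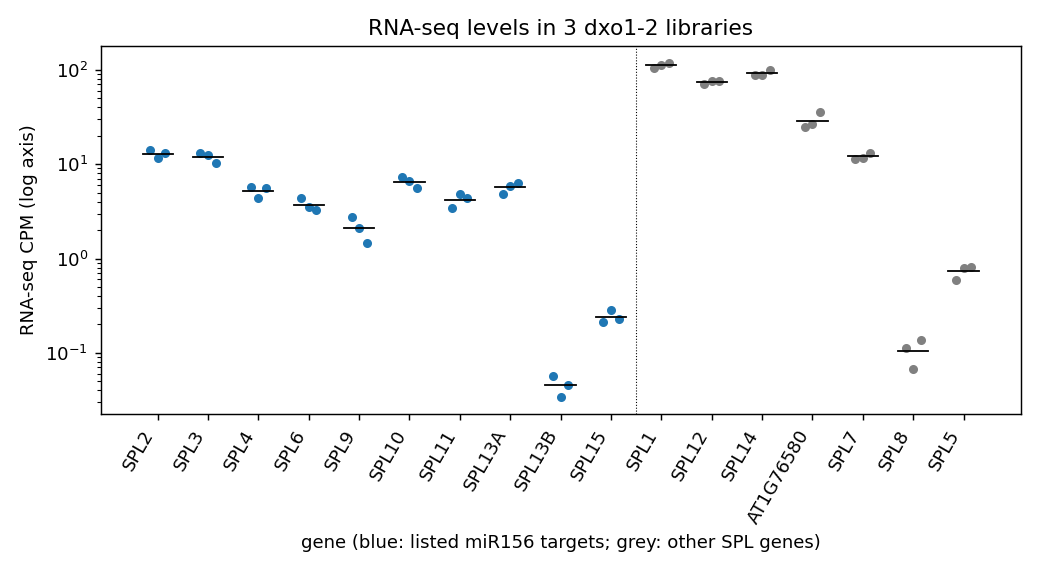
RNA-seq CPM (y axis, log scale) of the 10 targeted SPL genes (blue) and 7 other SPL genes (grey) in the 3 dxo1-2 libraries (points, bar at the mean). SPL13B and SPL15 lie below 1 CPM among the targets, and SPL1, SPL12 and SPL14 lie between 70.5 and 119 CPM.

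Set against its own transcript, the small RNA of the targeted genes in dxo1-2 was high for protein-coding genes. The measure is mean small RNA CPM over mean RNA-seq CPM of the same gene, computed where RNA-seq reached 1 CPM. It was 2.05 for SPL9, 1.49 for SPL13A and 0.755 for SPL6, and 0.469 to 0.615 for SPL2, SPL4, SPL10 and SPL11. SPL3 had a ratio of 0, and SPL13B and SPL15 were below 1 RNA-seq CPM and got no ratio. The median over 17225 protein-coding genes was 0.0794, with a middle 50% of 0.0398 to 0.192. Each of the 7 targets with small RNA was above at least 88.2% of these genes. The genes that miR156 does not target and that reached 1 RNA-seq CPM were all below that median. Their ratios were 0.0383 for SPL1, 0.0467 for SPL12, 0.0713 for SPL14, 0.0684 for AT1G76580 and 0.0612 for SPL7. SPL8, which is not a target either, was left out by the limit of 1 CPM. It had 2.79 small RNA CPM and 0.106 RNA-seq CPM in dxo1-2, so a high ratio was not particular to targets. In small RNA alone SPL1, SPL12 and SPL14 averaged 4.29, 3.47 and 6.53 CPM in dxo1-2, within the 2.45 to 8.45 CPM of the 7 targets. In RNA-seq they stood at 74.3 to 112 CPM and the 7 targets at 2.10 to 12.8 CPM, per gene and not per length. The protein-coding genes were not matched to the targets by RNA-seq level. Small RNA reads counted at several genes would raise the ratio, as would RNA-seq reads set aside at SPL13A, and their part was not tested.

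**Figure D4:**
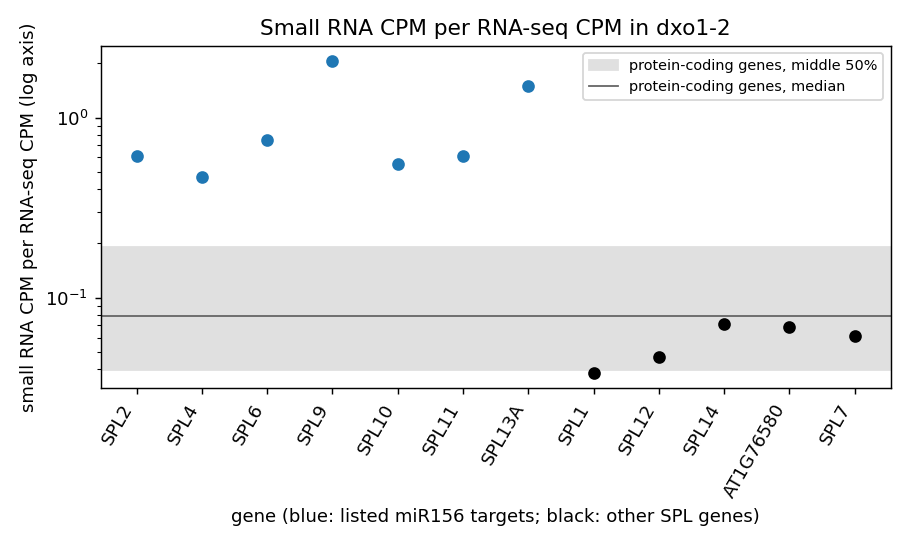
Mean small RNA CPM over mean RNA-seq CPM in dxo1-2 (y axis, log scale) for SPL genes with at least 1 RNA-seq CPM and a ratio above 0, with the middle 50% (band) and the median (line) of protein-coding genes. The targeted genes (blue) lie between 0.469 and 2.05, and the other SPL genes (black) between 0.0383 and 0.0713.

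SPL13A was the member with the highest mean small RNA CPM, taken per gene and not per length, and its profile over the 6 libraries was set against 6045 other genes whose mean count reached 50. The nearest was SPL13B, at a root mean square distance of 0.0314 on the log2 scale. AT4G03090, AT2G04060, AT1G80380 and BGAL15 (AT1G31740) followed at 0.127 to 0.157. This is a description over 6 libraries of 2 genotypes.

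Of 17 genes listed for phase change and flowering, 4 passed the small RNA filter, with 1 called higher and 1 lower. SVP (AT2G22540), a repressor of flowering, rose in dxo1-2, with 52, 60 and 51 small RNA counts in dxo1-2 against 9, 6 and 10 in Col-0. Its log2 fold change was 2.03 ± 0.32 (edgeR, adjusted p = 0.000266), and it was called in every alternative run. TSF (AT4G20370), the close relative of the florigen FT, had 37, 28 and 34 counts in dxo1-2 against 37, 28 and 32 in Col-0. It was called lower after scaling at a log2 fold change of -0.65 ± 0.25 (adjusted p = 0.0494). The call was lost in 12 alternatives, among them leaving out Col-0 replicate 1, Col-0 replicate 3 or any dxo1-2 replicate (adjusted p from 0.0529 to 0.140). TRY and PAP1, regulators of trichomes and of anthocyanin, were not called, at -0.35 ± 0.23 and -0.37 ± 0.18. PAP1 was called lower without Col-0 replicate 1, without dxo1-2 replicate 2, with no count filter and with the replicate number as a block. When TMM was computed on snRNA genes, both PAP1 and TRY were called lower.

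Pathway genes were also named by mean RNA-seq CPM in dxo1-2, which is per gene and not per length, so their order is no ranking of transcript levels. Of the flowering list these were SVP at 71.2 ± 7.11 CPM, SOC1 (AT2G45660), a flowering promoter downstream of SPL9, at 28.9 ± 1.67 CPM and DFR (AT5G42800), an anthocyanin enzyme, at 18.7 ± 2.81 CPM. SOC1 had 3 summed small RNA counts in dxo1-2 and 10 in Col-0, a ratio of 0.188 (exact 95% interval 0.0333 to 0.731, counting error only). LFY was at 0.0830 ± 0.0779 CPM in RNA-seq and AP1 at 0.

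Of 10 genes that make or use microRNAs, 4 passed the filter, 2 were called higher and 1 lower. AGO1 (AT1G48410), whose protein carries miR156 to its targets, had 1191, 1051 and 1180 small RNA counts in dxo1-2, against 152, 149 and 159 in Col-0. Its log2 fold change was 2.22 ± 0.085 (edgeR, adjusted p = 1.4e-09). SQN (AT2G15790), a cyclophilin that helps load AGO1, had 38 summed counts in dxo1-2 and 2 in Col-0, a ratio of 11.9 (exact 95% interval 3.08 to 102). SQN passed the count filter only through its dxo1-2 libraries, and so could be called only because it was high there. CBP80 (AT2G13540), a subunit of the cap-binding complex, fell to 95, 46 and 97 counts in dxo1-2, against 355, 207 and 183 in Col-0, with a log2 fold change of -2.33 ± 0.27 (adjusted p = 3.0e-05). DCL1 (AT1G01040), which cuts microRNA precursors, stood at 0.26 ± 0.16 on the log2 scale and was not called (edgeR, adjusted p = 0.192). In the RefSeq table DCL1 overlaps a microRNA gene, the long non-coding RNA gene AT1G03993 and the protein-coding gene AT1G01050. SQN overlaps the pseudogene AT2G15800, and the part of these overlaps in the counts was not tested. The genes of this list named by RNA-seq CPM, again per gene and not per length, were AGO1 at 72.5 ± 6.52 CPM, SE (AT2G27100), a partner of DCL1, at 32.1 ± 1.30 CPM and CBP80 at 30.5 ± 0.619 CPM.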

How the data were processed

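Small RNA was measured in 3 dxo1-2 and 3 Col-0 libraries and RNA-seq in 3 dxo1-2 libraries, all biological replicates per the labels. The authors deposited 1 table of raw gene counts for each library. Its 5 summary lines stayed out of tests. The submitters' processing notes name HISAT2, HTSeq, DESeq2, Bowtie and bedtools and the build TAIR10. Their roles, versions, strand setting and rule for reads with several matches are not given in the sources used here. A gene and an overlapping or antisense gene therefore cannot be told apart with certainty. Names and overlaps come from a RefSeq table of TAIR10.1, which matched 36899 of 37184 identifiers. Overlaps were computed from its gene coordinates, and no sequences were used.

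Small RNA counts went through edgeR 4.0.16 under R 4.3.3, with its quasi-likelihood test (two-sided), TMM factors, the default filter on low counts, genotype as the only term and Benjamini-Hochberg adjustment over all tested genes at 0.05. The same code was tested on simulated data. An SE was taken as the size of the log2 fold change divided by the root of its F value, with a prior count of 0.125. RNA-seq CPM used TMM factors from genes whose mean count reached 10. Intervals of ratios are exact binomial at 95% and, like the limit of 3 counts for a 0, cover counting error only. Alternatives changed the scaling, filter, test (limma 3.58.1, DESeq2 1.42.0), pairing and libraries. The members, lists, named-gene rules and alternatives were chosen with earlier results of these data known. The rules named all SPL genes and, of the 2 pathway lists, the called genes and the 3 with the highest RNA-seq CPM. TRY, PAP1, LFY, AP1 and DCL1 were named after their values were seen.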

Additional observations from a re-analysis of the deposited data

How the results depend on the processing

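The count of targeted SPL genes past the threshold was 4, where 5744 of all 11534 tested genes passed. It was 2 with library totals alone and with limma-voom, 0 with all lines of a table as the library size, 8 with snRNA-based TMM, 7 with no count filter, and 0 to 7 when 1 library was left out. Their median log2 fold change of -0.95 became -0.38 with all lines and -1.63 with snRNA-based TMM, and ranged from -1.34 to -0.23 with 1 library left out. Of the other SPL genes 1 passed, against 2 with library totals alone, 3 with all lines or no filter, 0 without rRNA and tRNA genes (SPL8 was then not tested), with snRNA-based TMM or with DESeq2, and 0 to 1 with 1 library left out. SPL1 turned to -0.16 with snRNA-based TMM. SPL12 turned to -0.52 there, and ranged from -0.059 to 0.39 with 1 library left out. Of the flowering genes 2 passed, against 1 with RLE scaling, library totals, all lines, DESeq2 or a mean of at least 10 counts, 4 with snRNA-based TMM and 1 to 2 with 1 library left out. The cause of these changes was not tested. The counts of called genes among those that make or use microRNAs and among all genes stayed within 1.5 times of their values. The summed RNA-seq level of the 10 targets was 52.6 CPM, and 102 CPM as a share of nuclear genes without rRNA, since 48.2% to 49.1% of RNA-seq gene counts were plastid, mitochondrial or rRNA.

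Same-numbered small RNA libraries did not deviate together (correlations of deviations 0.111, -0.095 and -0.035), and 1 of the 3 dxo1-2 libraries correlated best with the Col-0 library of its own number. With the replicate number as a block 4 targeted genes passed, as without it, and of the flowering genes PAP1 passed in place of TSF (adjusted p = 0.0814 for TSF in edgeR). Depth limits these genes: outside Col-0 replicate 1 no targeted gene held more than 53 counts in a library, and differences of a few counts were not detectable.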
